A study of Bos grunniens and Bos grunniens x Bos taurus with 12 samples.

Results

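The genes described here are 10 markers of macrophages, read in ribosome footprint (Ribo-seq) libraries of yak and cattle–yak testis. They were chosen by symbol: the complement chains C1QA, C1QB and C1QC, the surface receptors CD14, CD163, CSF1R and MRC1, the lysosomal protein CD68, and the intracellular proteins AIF1 and TYROBP. In the tables of 20965 genes, of which 13662 carry a symbol, 8 of the 10 symbols had a row. MRC1 and TYROBP matched no symbol and were not analysed by that rule. All 8 matched genes passed the filter on low counts in each of the 6 comparisons. Ribo-seq sequences the short RNA stretches that ribosomes shield from digestion, so a level stands for the ribosomes found on a gene's transcripts. Levels are given as FPKM, the count of a gene divided by its effective length and by the total of its library.

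The 12 libraries came from 12 males in 4 groups of 3: yak (Bos grunniens) of 6 months, labelled juvenile, of 18 months, labelled puberty, of 4 years, labelled sexual maturity, and cattle–yak, aged 4 years by the labels. No treatment is named. The labels give castration as the source of all testes, whereas the methods give it for the cattle–yak and name euthanasia for the yak. The cattle–yak is the hybrid of Jersey cattle bulls and Gannan yak cows, and its males are sterile. Reads of all groups, the hybrid included, were aligned to the yak genome, and what this does to the hybrid's counts was not tested. Whole testis was ground, so macrophages are one cell type among many in each sample, and fewer macrophages cannot be told apart from fewer footprints per macrophage.

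Macrophages are the most abundant immune cells of the testis. Interstitial macrophages lie among the Leydig cells, the steroid-producing cells between the tubules, and a further population lies along the tubule wall near the spermatogonia. They depend on signals through CSF1R, clear debris, and keep immune responses to germ cells low.

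One library stands apart and touches every result at 18 months. In replicate 2 at 18 months, the summed level of 6 spermatid genes was 7136 FPKM, against 2.84 and 16.1 in the other 18-month libraries. The 3 libraries at 4 years had sums of 12165, 9309 and 12019 FPKM, the 6-month libraries 1.02 to 1.44 and the cattle–yak 3.27 to 29.8. TNP1, a nuclear protein of elongating spermatids, was at 6016 FPKM in that library and at 0 and 9.72 in the others of its age. Each comparison with 18 months is therefore given with and without replicate 2. The total count of a library was 25816963 to 37167651 at 6 months, 21309151 to 24542362 at 18 months, 16304058 to 17862516 at 4 years, with 38437889 to 52616039 in cattle–yak.

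C1QA, C1QB and C1QC encode the A, B and C chains of C1q, the recognition part of the classical complement pathway, which macrophages make and which assembles from all 3 chains. In the RefSeq yak annotation (Bosgru_T2T1.0) the 3 genes lie side by side on chromosome 2 in the order C1QA, C1QC, C1QB, with 1 transcribed pseudogene between C1QC and C1QB. C1QA (ENSBGRG00000003422) was at 120, 172 and 216 FPKM at 6 months, 128, 66.8 and 136 at 18 months, 74.1, 105 and 40.7 at 4 years, and 50, 63.2 and 73.7 in cattle–yak. C1QB (ENSBGRG00000003451) was at 111, 149 and 174 FPKM at 6 months, 133, 61.4 and 136 at 18 months, 56.3, 102 and 36.3 at 4 years, and 60.5, 77.3 and 78.7 in cattle–yak. The libraries of 6 months lay above all libraries of 4 years and of cattle–yak for both chains, and the 4-year and cattle–yak libraries overlapped. C1QC (ENSBGRG00000003430) was at 50.2, 58.5 and 75.1 FPKM at 6 months, 45.9, 21.9 and 49.3 at 18 months, 17.2, 29.9 and 11.7 at 4 years, and 31.7, 38.6 and 49.2 in cattle–yak. For this chain the cattle–yak libraries lay above all libraries of 4-year yak and below all of 6 months. In each C1q gene the lowest library at 18 months was replicate 2.

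Mean levels of C1QA were, in falling order, 169 ± 48.3 FPKM (SD, n = 3) at 6 months, 110 ± 37.9 at 18 months, 73.4 ± 32.3 at 4 years, with 62.3 ± 11.9 in cattle–yak, and no neighbours in this order differed by edgeR's test on the counts. Without replicate 2 at 18 months, the 18-month and 4-year groups did (log2 fold change -1.07, adjusted p = 0.0374). The order for C1QC was 61.2 ± 12.7 FPKM (SD, n = 3) at 6 months, 39.8 ± 8.78 in cattle–yak, 39 ± 14.9 at 18 months and 19.6 ± 9.32 at 4 years, and here 6 months and cattle–yak differed. Without replicate 2 the 18-month mean was 47.6, above cattle–yak, and of the neighbours only cattle–yak and 4 years differed. C1QB averaged 145 ± 31.9 FPKM (SD, n = 3) at 6 months, 110 ± 42.1 at 18 months, 72.2 ± 10.2 in cattle–yak and 65 ± 33.9 at 4 years.

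CSF1R (ENSBGRG00000020676), the receptor for the macrophage growth factor CSF1, was at 29.1, 28.8 and 28.6 FPKM at 6 months, the tightest group of any member, with an SD of 0.968% of the mean. It was at 22.5, 12.9 and 22.5 at 18 months, 13, 15.7 and 11.3 at 4 years, and 12.3, 18.4 and 13.3 in cattle–yak. All 6-month libraries lay above all others, and 4-year yak and cattle–yak overlapped.

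CD14 had its higher levels in the older animals. CD163 did so in FPKM, but the size of its fitted change from 6 months depended on the scaling. CD14 (ENSBGRG00000018040), the coreceptor that hands lipopolysaccharide to TLR4, was at 4.78, 3.2 and 3.28 FPKM at 6 months, 2.19, 8.24 and 2.34 at 18 months, 11.6, 15 and 12.2 at 4 years, and 9.2, 10.8 and 16.8 in cattle–yak. All 6 libraries of 4-year yak and cattle–yak lay above all 6 of the younger yak. CD163 (ENSBGRG00000008424), which takes up haemoglobin bound to haptoglobin, was at 15.1, 8.85 and 9.65 FPKM at 6 months, 4.41, 7.28 and 9.59 at 18 months, 13.6, 26.3 and 17.1 at 4 years, and 15.6, 18.2 and 18.4 in cattle–yak. Its cattle–yak libraries lay above all libraries of 6 and 18 months, while those of 4 years overlapped 6 months in 1 library.

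CD68 (ENSBGRG00000015552), a glycoprotein of the macrophage lysosome, was at 11.2, 8.04 and 10.3 FPKM at 6 months, 5.47, 5.52 and 8.41 at 18 months, 9.32, 10.4 and 6.62 at 4 years, and 4.01, 4.69 and 2.91 in cattle–yak. The cattle–yak libraries were the lowest 3 of the 12. AIF1 (ENSBGRG00000013397), also called IBA1, a calcium-binding protein that bundles actin, was at 17, 37.8 and 41.4 FPKM at 6 months, 24, 125 and 35.6 at 18 months, 220, 175 and 187 at 4 years, and 13.5, 14.9 and 10.8 in cattle–yak. AIF1 had the widest range of the members. Its 4-year libraries lay above all others, its cattle–yak libraries below all others, and replicate 2 at 18 months came next after the 4-year libraries. In order of mean FPKM, neighbouring groups differed by call in C1QC and AIF1, both times between 6 months and cattle–yak, and in no other member. Without replicate 2 at 18 months some orders changed, and neighbours differed by call in 5 members: C1QA (18 months and 4 years), C1QB (18 months and cattle–yak), C1QC (cattle–yak and 4 years), CD14 (cattle–yak and 6 months) and AIF1 (4 years and 6 months, and 18 months and cattle–yak).

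**Figure D1:**
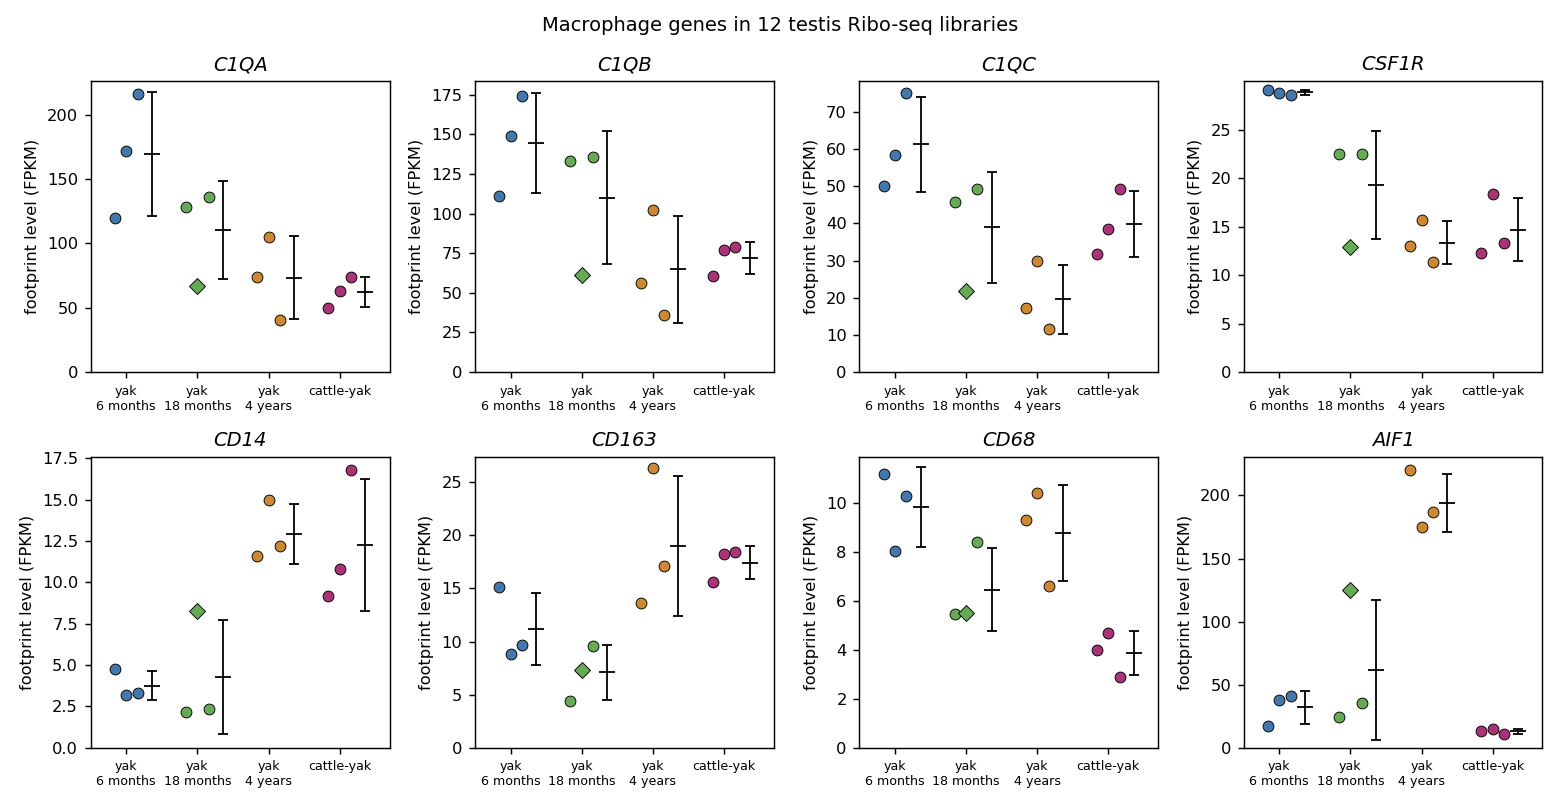
Footprint level (FPKM, linear axes from 0) of the 8 macrophage genes in each of 12 libraries, with the group mean and SD beside the points (n = 3 per group). The diamond is replicate 2 at 18 months, the library with 7136 FPKM of spermatid genes. C1q chains and CSF1R are highest at 6 months, CD14 is highest in 4-year yak and cattle–yak, and AIF1 stands at 175 to 220 FPKM in 4-year yak against 10.8 to 14.9 in cattle–yak.

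One row without a symbol (ENSBGRG00000022191) is described in the tables as the TYRO protein tyrosine kinase-binding protein, the full name of TYROBP, the adaptor that carries the signals of TREM2 and other receptors. It falls outside the rule by symbol and was found by its description. Its level was 7.3, 11.2 and 13.2 FPKM at 6 months, 13.4, 10.5 and 15 at 18 months, 4.11, 5.65 and 6.35 at 4 years, and 5.54, 6.7 and 8.47 in cattle–yak, on 28 to 160 counts. By edgeR it fell by 1.51 on the log2 scale from 6 months to 4 years (SE 0.33, adjusted p = 0.00281), and its log2 fold change from 4-year yak to cattle–yak was 0.38 (SE 0.30, adjusted p = 0.291).

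The first question was how the macrophage genes change with age in yak. Between 6 months and 4 years, C1QA, C1QB, C1QC and CSF1R fell and CD14 and AIF1 rose. Counts were tested by edgeR's quasi-likelihood method with p-values adjusted after Benjamini-Hochberg over all genes. To be called, a gene needed an adjusted p under 0.05 and a fold of 1 or more on the log2 scale, up or down. By this rule 4 of 8 members were called lower at 4 years, where 24.7% of all genes were, and 2 were called higher, where 31% of all genes were. C1QC fell most, by 2.21 on the log2 scale (SE 0.31, adjusted p = 0.000204), or 4.61-fold. C1QA fell by 1.76 (SE 0.32, adjusted p = 0.00104), C1QB fell by 1.71 (SE 0.33, adjusted p = 0.00145) and CSF1R fell by 1.69 (SE 0.17, adjusted p = 2.28e-05). AIF1 rose 4.15-fold (log2 fold change 2.05, SE 0.27, adjusted p = 0.00013) and CD14 rose 2.29-fold (log2 fold change 1.19, SE 0.27, adjusted p = 0.00313).

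CD68 passed the adjusted p (0.0274) but not the fold, at a log2 fold change of -0.75 (SE 0.26), and CD163 was not called, at 0.16 (SE 0.31, adjusted p = 0.656). The members' median log2 fold change was -1.22, beside 0.08 over all genes tested. The fitted folds are scaled by TMM, a scaling on the bulk of genes, whereas FPKM is scaled on the library total. With the library total as the scale, the median of all genes moved to 0.64 and 72.6% of all calls were higher, against 55.7% with TMM. All 6 calls among the members held on that scale, at -1.20 for C1QA, -1.15 for C1QB, -1.64 for C1QC, -1.12 for CSF1R, 1.79 for CD14 and 2.59 for AIF1. CD163 moved from 0.16 to 0.76 and CD68 from -0.75 to -0.17, so neither has a size that holds across scales.

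The steps between neighbouring ages held fewer calls. From 6 to 18 months, 0 of 8 members were called in either direction, where 0.0202% of all genes were called higher and 0.0471% lower. The edgeR test at an unadjusted p under 0.05 gave 5 of 8 members lower and 0 higher, where 1712 of all 14874 genes were lower and 2125 higher. DESeq2 and limma called 0 members, while DESeq2 called 794 of all genes lower and 1081 higher. All 18-month libraries lay below all 6-month libraries for C1QC (log2 fold change -0.97, SE 0.35, adjusted p = 0.155) and CSF1R (-0.91, SE 0.29, adjusted p = 0.125). Without replicate 2 at 18 months, 0 members were called, the value of AIF1 moved from 0.57 to -0.39 and that of CD14 from -0.24 to -1.05.

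From 18 months to 4 years, 0 of 8 members were called, where 0% of all genes were called higher and 0.0371% lower. At an unadjusted p under 0.05 the edgeR test gave 3 members higher (CD14, CD163 and AIF1) and 0 lower, where 1915 of all 16175 genes were higher and 3816 lower. DESeq2 called these 3 (and 1234 of all genes higher), and limma called 0. Replicate 2 at 18 months decides this comparison. Without it, 26.1% of all genes were called higher and 18.5% lower, and the members split into 3 higher and 3 lower of 8. CD14 then rose by a log2 fold change of 2.29 (SE 0.28, adjusted p = 0.000527), AIF1 by 2.50 (SE 0.22, adjusted p = 0.00012) and CD163 by 1.26 (SE 0.36, adjusted p = 0.0218). C1QA fell by 1.07 (SE 0.36, adjusted p = 0.0374), C1QB fell by 1.27 (SE 0.39, adjusted p = 0.0275) and C1QC fell by 1.50 (SE 0.37, adjusted p = 0.0112). CSF1R was just short of the fold, at -0.99 (SE 0.21, adjusted p = 0.00599). CD163 thus had a value of 1.25 with and 1.26 without the library, while CD14 moved from 1.48 to 2.29 and AIF1 from 1.55 to 2.50.

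The second question was how the testis of the sterile hybrid differs from that of yak of the same labelled age. AIF1 was 14.9-fold and CD68 2.25-fold lower in cattle–yak, while C1QC rose 2.04-fold, and the other 5 members were not called. In counts, 2 of 8 members were called lower, where 27% of all genes were, and 1 was called higher, where 17.1% of all genes were. The log2 fold change of AIF1 was -3.90 (SE 0.20, adjusted p = 1.69e-06), with a mean of 13.1 ± 2.09 FPKM (SD, n = 3) in cattle–yak and 194 ± 23.2 in 4-year yak. CD68 fell by 1.17 on the log2 scale (SE 0.27, adjusted p = 0.00543) and C1QC had a log2 fold change of 1.03 (SE 0.32, adjusted p = 0.0207).

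Both of the smaller calls sit at the edge of the fold and depend on single libraries. The call of C1QC was lost without replicate 1 at 4 years (1.04, adjusted p = 0.0572), without replicate 3 at 4 years (0.83, adjusted p = 0.0336) and without cattle–yak replicate 3 (0.87, adjusted p = 0.061). The call of CD68 was lost without replicate 2 at 4 years (-0.98, adjusted p = 0.029) and without cattle–yak replicate 3 (-0.99, adjusted p = 0.0173). The 5 members that were not called had log2 fold changes near 0: C1QA -0.23 (SE 0.31), C1QB 0.16 (SE 0.33), CSF1R 0.13 (SE 0.19), CD14 -0.07 (SE 0.23) and CD163 -0.11 (SE 0.22). Their adjusted p-values were between 0.529 and 0.807, and each of these 5 changed sign when some library was left out. The members' median was -0.09, beside 0.00 over all genes tested.

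The hybrid was also set against the younger yak. This comparison shares the cattle–yak libraries with the one above and the 6-month libraries with the age comparison, so the 3 are not independent. Against 6 months, 6 of 8 members were called lower in cattle–yak, where 19.7% of all genes were, and 1 was called higher, where 18.1% of all genes were. C1QA fell by 1.96 on the log2 scale (SE 0.21, adjusted p = 0.000134), C1QB fell by 1.53 (SE 0.17, adjusted p = 0.000152), C1QC fell by 1.15 (SE 0.19, adjusted p = 0.00118) and CSF1R fell by 1.54 (SE 0.18, adjusted p = 0.000224). CD68 fell by 1.90 (SE 0.27, adjusted p = 0.000546) and AIF1 fell by 1.82 (SE 0.30, adjusted p = 0.00116). CD14 rose by a log2 fold change of 1.15 (SE 0.31, adjusted p = 0.0128), a call that was lost without cattle–yak replicate 3 (0.87, adjusted p = 0.0516). CD163 was at 0.08 (SE 0.25, adjusted p = 0.813). Scaled by library total the median of all genes moved from -0.02 to 0.52 and the share of calls that were higher from 47.9% to 72.2%. C1QC then fell short of the fold at -0.62, CSF1R missed it by less than its SE, and CD163 moved to 0.64.

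Against 18 months, CD163 alone was called, higher in cattle–yak by a log2 fold change of 1.19 (SE 0.25, adjusted p = 0.0453), where 3.45% of all genes were called higher and 2.34% lower. The call of CD163 was lost without replicate 1 at 18 months (1.02, adjusted p = 0.0699) and without any of the 3 cattle–yak libraries, at adjusted p = 0.159, 0.161 and 0.185. No member was called lower by edgeR, though 3 had an unadjusted p under 0.05 (2482 of all 15702 genes were lower at that p), DESeq2 called 1 and limma 0. Without replicate 2 at 18 months, CD14 (2.22, adjusted p = 0.0132) and CD163 (1.14, adjusted p = 0.0333) were called higher and C1QA (-1.31, adjusted p = 0.0127), C1QB (-1.12, adjusted p = 0.0139) and AIF1 (-1.41, adjusted p = 0.0168) lower, where 7.22% of all genes were called higher and 8.04% lower.

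**Figure D2:**
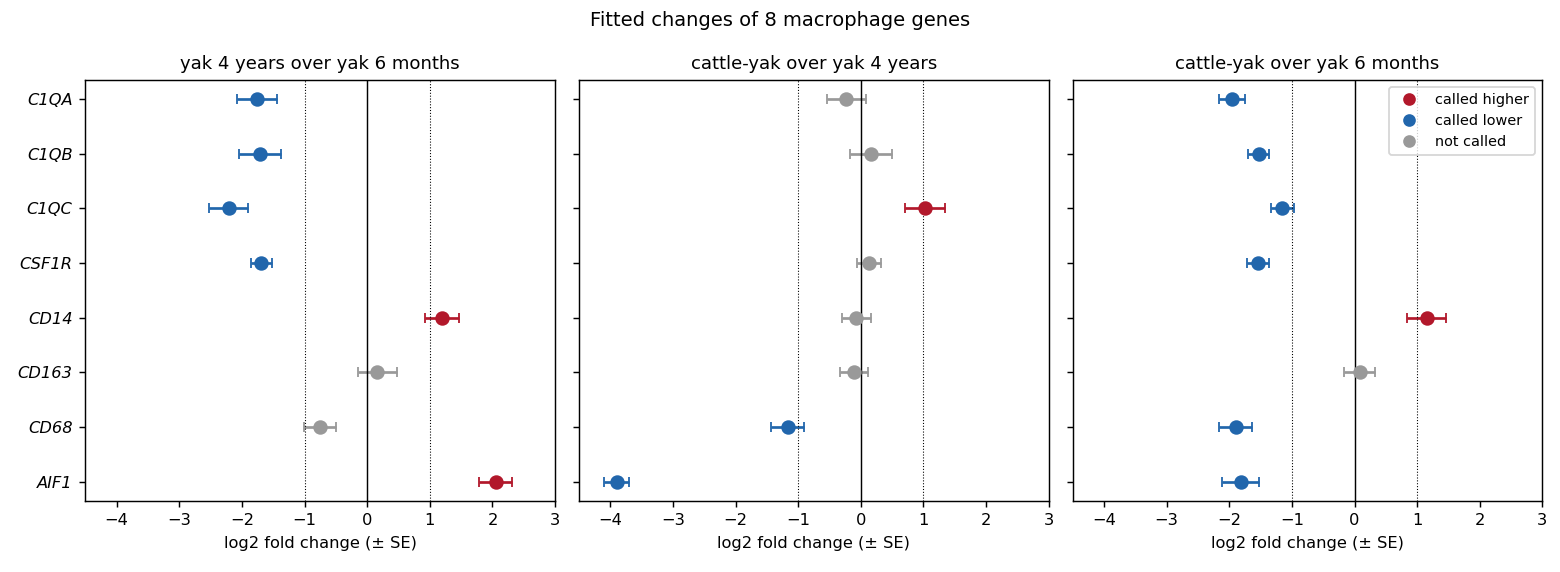
Log2 fold change with its SE (edgeR, 3 libraries per group) of the 8 macrophage genes in 3 comparisons. Dotted lines mark a fold of 1 on the log2 scale, red and blue points are called higher and lower and grey points are not called. C1q chains and CSF1R fall with age and are, except for C1QC, near 0 between cattle–yak and 4-year yak, while AIF1 reaches -3.90 there.

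Ratios of 2 genes within a library do not depend on how libraries are scaled. They were chosen after the levels had been seen, for 9 pairs of genes over 6 comparisons each, which makes 54 tests. The share of all gene pairs without overlap was not counted, so a lack of overlap has no background beside it here. C1QC over C1QB was 0.453, 0.393 and 0.431 at 6 months, 0.345, 0.356 and 0.364 at 18 months, 0.306, 0.292 and 0.323 at 4 years, and 0.525, 0.5 and 0.624 in cattle–yak. The groups did not overlap in any of the 6 comparisons, and replicate 2 at 18 months lay within its own group. The mean ratio was 0.307 ± 0.0155 (SD, n = 3) at 4 years, with 0.55 ± 0.066 in cattle–yak, a 1.78-fold difference. With 3 libraries against 3 the exact two-sided permutation test gave p = 0.1, the smallest p that this design allows (0.18 after Benjamini-Hochberg adjustment over the 54 tests). Ratios of counts gave the same folds for this pair.

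C1QA over C1QB was 1.16 ± 0.0802 (SD, n = 3) at 6 months, 1.02 ± 0.0629 at 18 months, 1.16 ± 0.146 at 4 years, with 0.86 ± 0.0659 in cattle–yak. The yak ages overlapped, and the cattle–yak libraries, at 0.826, 0.818 and 0.936, lay below all 9 yak libraries. Relative to the B chain the hybrid thus had more footprints on the C chain and fewer on the A chain than 4-year yak, with no overlap. Each had an exact permutation p = 0.1 (adjusted 0.18). With 3 libraries against 3 this test cannot reach 0.05, so it does not decide either difference. CSF1R over C1QB ran from 0.153 to 0.313 over the 12 libraries with overlap in all 6 comparisons.

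CD163 over CSF1R separated the older from the younger libraries. It was 0.519, 0.307 and 0.337 at 6 months, 0.196, 0.566 and 0.425 at 18 months, 1.04, 1.68 and 1.51 at 4 years, and 1.27, 0.992 and 1.38 in cattle–yak. The 4-year ratios were 3.66-fold those of 6 months and the cattle–yak ratios 3.18-fold, each with no overlap and exact permutation p = 0.1 (adjusted 0.18). The ratios of 4-year yak and cattle–yak overlapped (exact permutation p = 0.4). Replicate 2 at 18 months, at 0.566, stood with the younger animals here. Relative to PTPRC (CD45, carried by all white blood cells), CD163 was 0.38 ± 0.269 (SD, n = 3) at 6 months, 0.312 ± 0.162 at 18 months, 2.08 ± 0.645 at 4 years, with 1.75 ± 0.32 in cattle–yak. This ratio, like CD163 over C1QB and CD14 over C1QB, had no overlap in 4 of the 6 comparisons. CD68 over C1QB had none in 3 and C1QB over PTPRC in 2. Without a share over all gene pairs, these counts are not a trait of macrophage genes. In all 9 pairs no adjusted p was below 0.18, where no permutation p before adjustment could be below 0.1.

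**Figure D3:**
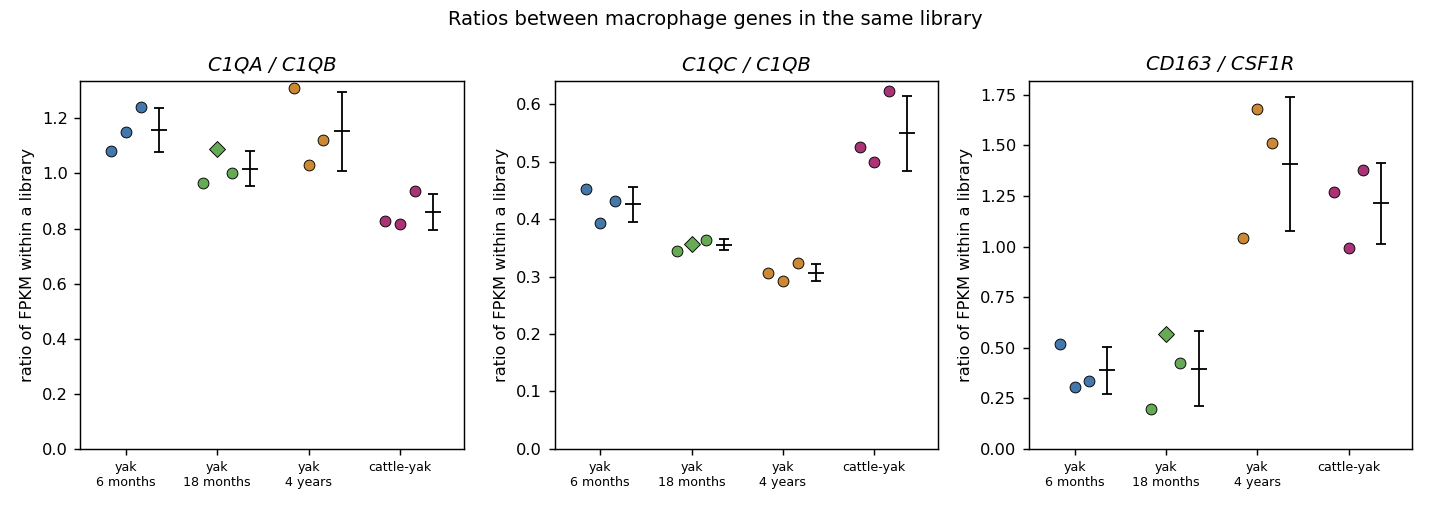
Ratio of FPKM between pairs of macrophage genes within each of 12 libraries, with the group mean and SD beside the points (n = 3 per group, axes from 0, diamond for replicate 2 at 18 months). C1QC over C1QB falls from 0.426 to 0.307 over the yak ages and is 0.55 in cattle–yak, and CD163 over CSF1R is at or above 0.992 in the 6 libraries of 4-year yak and cattle–yak and at most 0.566 in the others.

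Levels of AIF1 went with those of spermatid genes across libraries. AIF1 was at 125 to 220 FPKM in the 3 libraries at 4 years and in replicate 2 at 18 months, where 6 spermatid genes summed to 7136 to 12165 FPKM, and at 10.8 to 41.4 FPKM in the other 8 libraries, where they summed to 1.02 to 29.8. CD14 did not divide the libraries this way, since the cattle–yak had 9.2 to 16.8 FPKM of CD14 with at most 29.8 FPKM of spermatid genes. C1QC divided them in reverse, at 11.7 to 29.9 FPKM in the 4 libraries rich in spermatid genes and 31.7 to 75.1 in the other 8. C1QB and CSF1R overlapped, at 36.3 to 102 and at 11.3 to 15.7 FPKM in those 4, against 60.5 to 174 and 12.3 to 29.1 in the other 8. The share of all genes that divide the libraries this way was not counted. The part that germ cell content has in any of these values was not tested.

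**Figure D4:**
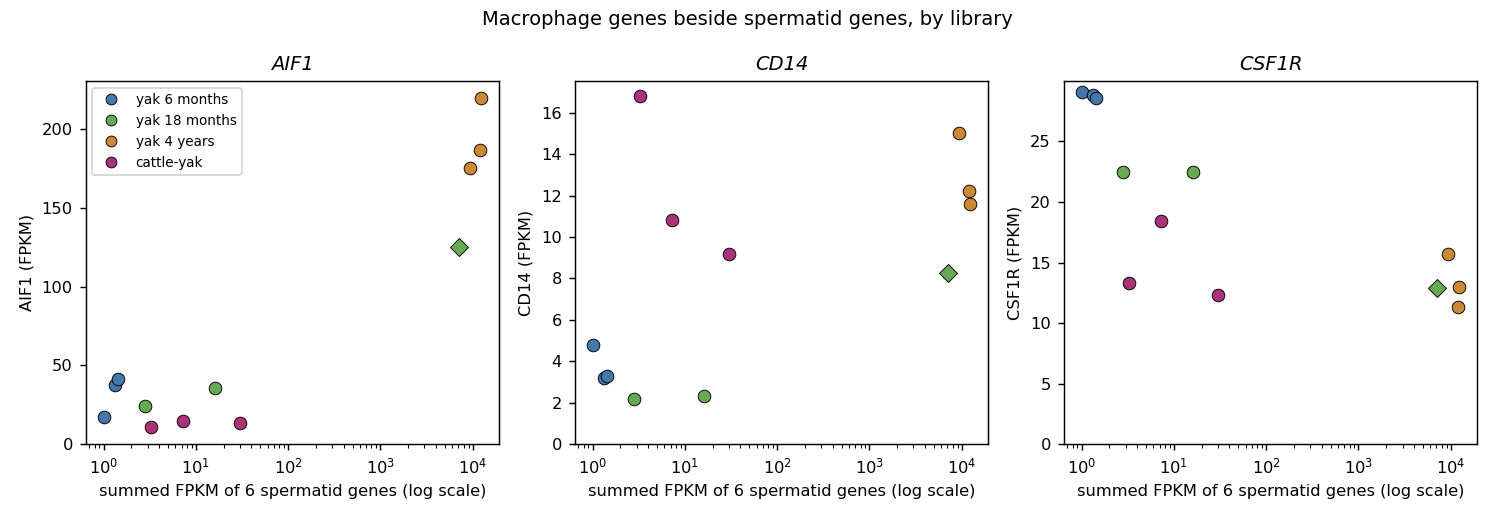
Level of AIF1, CD14 and CSF1R (FPKM, linear axes from 0) against the summed FPKM of 6 spermatid genes (log axis), 1 point per library, with a diamond for replicate 2 at 18 months. AIF1 is at 125 FPKM or above only in the 4 libraries with 7136 FPKM or more of spermatid genes, while CD14 is also high in the cattle–yak libraries, which have at most 29.8.

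Genes that work with the members were taken from 9 lists of 109 genes, of which 78 had a row. Whole testis was ground, so the counts of these lists cannot be assigned to macrophages. From 6 months to 4 years, 45 of the 69 tested genes were called lower (65.2%, beside 24.7% of all genes) and 4 higher (5.8%, beside 31%). Their median log2 fold change was -1.40, beside 0.08 over all genes. Scaled by library total 31 were called lower, and limma on FPKM called 23 to 29. Over all genes these settings called 2493 and 2058 to 2435 lower. From 4-year yak to cattle–yak, 9 of 70 were called lower (12.9%, beside 27% of all genes) and 8 higher (11.4%, beside 17.1%), with a median of 0.12. Against 6 months the hybrid had 40 of 71 lower (56.3%, beside 19.7%) and 1 higher (1.41%, beside 18.1%). There limma called 22 to 29 lower, and 1341 to 1728 of all genes. From 6 to 18 months edgeR called 0 of them, with 17 lower and 1 higher at an unadjusted p under 0.05. At that p 1712 of all 14874 genes were lower and 2125 higher. From 18 months to 4 years edgeR called 0 of them, with 30 lower and 1 higher at that p. Of all 16175 genes, 3816 were lower and 1915 higher there. DESeq2 called 7 lower in the first step and 20 lower and 1 higher in the second. Over all genes it called 794 lower and 1081 higher in the first, and 1992 lower and 1234 higher in the second. Without replicate 2 at 18 months edgeR called 2 lower and 0 higher in the first, where 0.279% of all genes were called lower and 0.226% higher. In the second it called 30 lower and 6 higher, where 18.5% of all genes were called lower and 26.1% higher. Without replicate 1 at 18 months it called 6 lower in the first, where 1249 of all 15454 genes were called lower and 1344 higher.

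The counts of each list below are to be set beside the shares of all genes called. At 4 years against 6 months these were 24.7% lower and 31% higher, and in cattle–yak against 4-year yak 27% lower and 17.1% higher. Among complement genes beside C1q, 3 of 8 were called lower and 1 higher at 4 years against 6 months. For so few genes, 3 of 8 is near the share of all genes. C1S, the protease that C1q activates through C1R, fell by 2.17 on the log2 scale (SE 0.27, adjusted p = 8.92e-05), and SERPING1, the inhibitor of C1R and C1S, fell by 2.41 (SE 0.24, adjusted p = 2.54e-05). C2, named after its value was seen, was also called lower. C3, a later component of the cascade, rose by a log2 fold change of 1.06 (SE 0.18, adjusted p = 0.000573). In cattle–yak against 4-year yak 1 of these 8 was called: VSIG4, the macrophage receptor for C3 fragments, named after its value was seen, fell by 1.23 on the log2 scale (SE 0.23, adjusted p = 0.00163).

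CSF1, the growth factor that binds CSF1R, was at 7.94, 9.56 and 9.36 FPKM at 6 months, 5.65, 3.18 and 5.13 at 18 months, 2.29, 2.42 and 2.21 at 4 years, and 3.39, 3.13 and 3.04 in cattle–yak. From 6 months to 4 years it fell by 2.52 on the log2 scale (SE 0.19, adjusted p = 3.5e-06), and from 4-year yak to cattle–yak it was at 0.48 (SE 0.21, adjusted p = 0.0785). Of the myeloid transcription factors 4 of 7 were called lower at 4 years. In cattle–yak against 4-year yak 2 of 8 were called lower, near the 27% of all genes: TFEC and RUNX1, named after their values were seen. In the other direction 1 was called: MAF, which sets the identity of resident macrophages and is also made in other cells, rose 3.12-fold (log2 fold change 1.64, SE 0.11, adjusted p = 5.28e-06).

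Of the partners of TYROBP and their kinases, 8 of 11 were called lower at 4 years against 6 months. PTPRC fell by 2.51 on the log2 scale (SE 0.27, adjusted p = 3.95e-05), and it was not called in cattle–yak against 4-year yak, at 0.13 (SE 0.21, adjusted p = 0.626). Of the scavenger and uptake receptors 7 of 8 were called lower at 4 years, among them MERTK, a receptor for dying cells (-2.24, SE 0.22), and MSR1, a receptor for modified lipoproteins (-1.33, SE 0.20). The eighth, TIMD4, was called higher (1.68, SE 0.35, adjusted p = 0.002). In cattle–yak against 4-year yak MERTK rose (log2 fold change 1.47, SE 0.19, adjusted p = 0.000189) and TIMD4 fell by 3.34 (SE 0.40, adjusted p = 0.000141). Of the Toll-like receptor partners of CD14, 2 of 5 tested were called lower at 4 years and none higher. For so few genes this is near the 24.7% of all genes called lower. LY96, the subunit of TLR4 that binds lipopolysaccharide, was at 0.06 (SE 0.41, adjusted p = 0.895). In cattle–yak against 4-year yak LY96 fell by 1.02 (SE 0.31, adjusted p = 0.0196).

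In the MHC class II pathway 5 of 7 genes were called lower at 4 years and 0 of 7 in cattle–yak against 4-year yak, also with DESeq2, with 1 lower at an unadjusted p under 0.05. CD74, the invariant chain that guides class II molecules, fell by 2.10 on the log2 scale (SE 0.32, adjusted p = 0.000343) with age and was at 0.36 (SE 0.24) between hybrid and yak. Of 13 adhesion, cytoskeleton and oxidase genes of white blood cells, 10 were called lower at 4 years and 1 higher. Among chemokines and cytokines 12 had a row and 7 were tested, of which 4 were called lower at 4 years, with CXCL12 at -2.56 (SE 0.28), and 1 higher, TGFB1 (1.03, SE 0.30, adjusted p = 0.013). CXCL12 rose 3.84-fold in cattle–yak against 4-year yak (log2 fold change 1.94, SE 0.34, adjusted p = 0.00128).

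**Figure D5:**
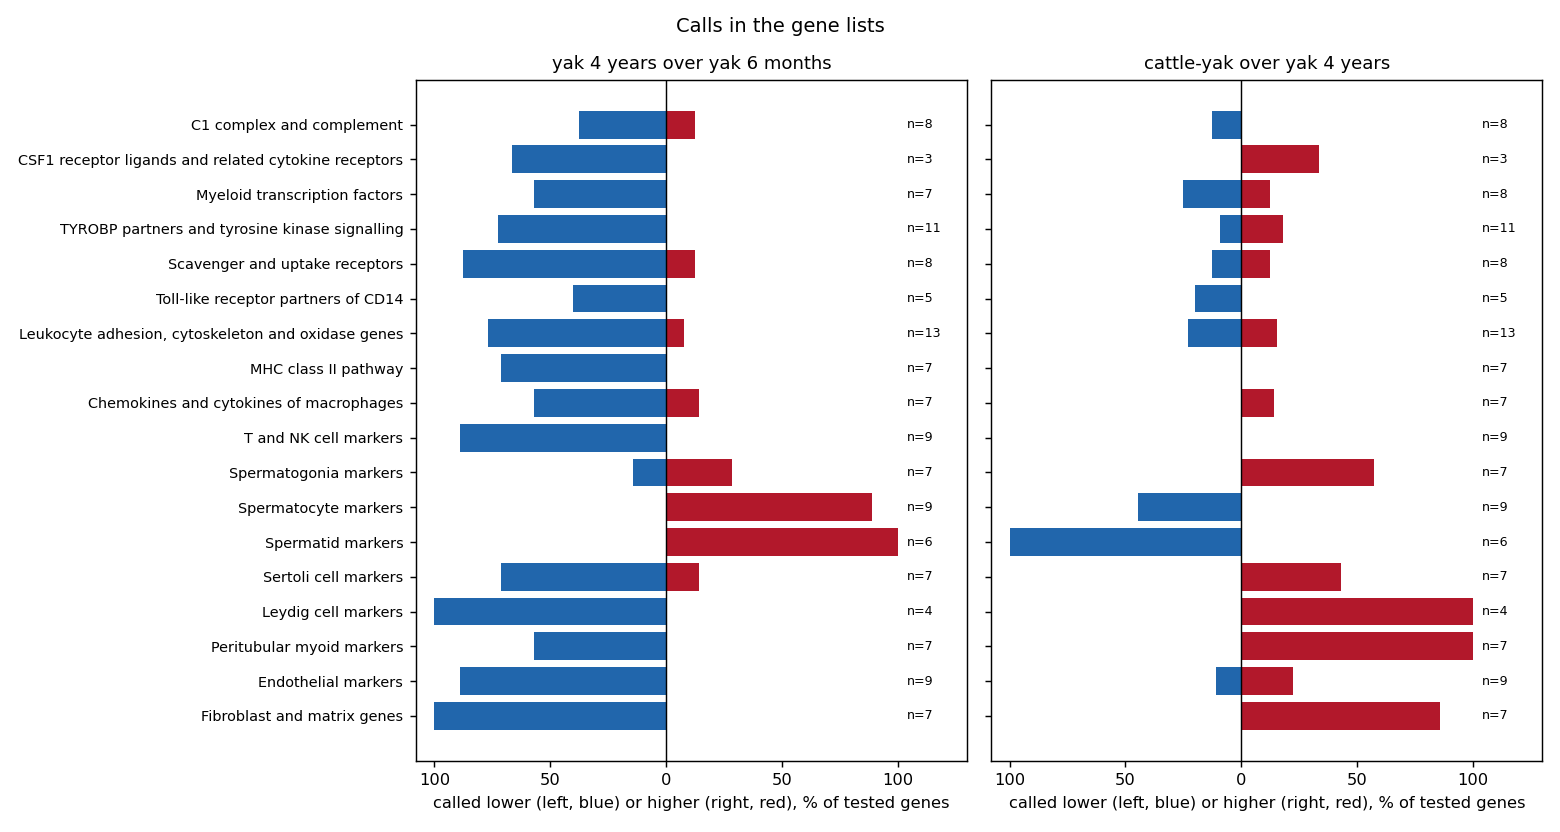
Share of the tested genes of each list that was called lower (blue, to the left) or higher (red, to the right) in 2 comparisons, with the number tested at the right (3 libraries per group). The B and plasma cell list and the neutrophil and mast cell list, with 3 of 6 and 3 of 8 rows tested at 4 years against 6 months, are not drawn. Nor is the red cell and platelet list, with 0 genes tested. The 9 lists of genes that work with the members lean to lower calls at 4 years against 6 months. For complement (3 of 8 lower) and Toll-like receptor partners (2 of 5 lower) this is near the 24.7% of all genes. The T and NK, Leydig, endothelial, fibroblast, Sertoli and myoid lists lean to lower calls too, while spermatid genes are all called higher there and lower in cattle–yak.

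Lists of other cells moved as well, and their part in the members' changes was not tested. Many genes of the supporting cells were also lower at 4 years than at 6 months, where 24.7% of all genes were called lower and 31% higher. Called lower were all 4 tested Leydig markers, all 7 fibroblast and matrix genes and 8 of 9 endothelial markers. So were 5 of 7 Sertoli, 4 of 7 peritubular myoid and 8 of 9 T and NK cell markers, while 1 Sertoli marker was called higher. All 6 spermatid genes were called higher. Summed Leydig levels were 1837 to 2758 FPKM at 6 months, 493 to 1134 at 18 months, 122 to 279 at 4 years, with 748 to 1254 in cattle–yak. Between cattle–yak and 4-year yak, where 17.1% of all genes were called higher and 27% lower, several of these lists had higher calls. These were 4 of 4 Leydig, 7 of 7 myoid, 6 of 7 fibroblast and 3 of 7 Sertoli genes. Of the endothelial genes 2 of 9 were called higher, near the share of all genes, and 1 lower. Of 9 T and NK markers edgeR and DESeq2 called 0, also at an unadjusted p under 0.05. Spermatogonia markers had 2 of 7 called higher, near the share of all genes, and 1 lower at 4 years against 6 months. In cattle–yak against 4-year yak 4 of 7 of them were called higher. Spermatocyte markers had 8 of 9 higher in the first comparison and 4 of 9 lower in the second. Of the red cell and platelet markers, 2 had a row (SLC4A1 and ALAS2), with a summed level of at most 0.05 FPKM.

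Over the 12 libraries the members did not move as 1 block. As a description over libraries that share their group structure, Pearson's r of log2(FPKM + 1) was 0.96 between C1QA and C1QB and 0.89 between each of them and CSF1R, whereas CD14 had r of -0.80 with CSF1R and 0.78 with CD163. AIF1 had r between -0.70 and 0.49 with the others. Among 10702 genes with a symbol and a mean of at least 1 FPKM, those most like the members' mean z-score were SLC18B1 (r = 0.90), NRG2 (0.87), IGFALS (0.87), IKZF1 (0.85), TUB (0.84), VIPR2 (0.84), CD86 (0.83), GGCX (0.83) and CLEC12A (0.82). IKZF1, CD86 and CLEC12A are genes of white blood cells. The members themselves had r of 0.83 (C1QA) to -0.34 (CD14) with that mean.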

How the data were processed

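Ribo-seq libraries of testis from 12 males were grouped by the labels, with 1 animal per library. The authors trimmed reads with fastp 0.20.0, removed rRNA with Bowtie2 2.2.8 and small RNA with BLAST 2.11.0, kept reads of 20 to 40 bases, aligned them with STAR to the yak genome BosGru 3.0 and counted with RSEM 1.2.19. The deposited values are RSEM estimated counts, given by the authors as whole numbers, and FPKM, by the authors' effective gene lengths and library totals. The tables' fold changes and p-values of the authors' own comparisons and tables of group means were not used.

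Only the 6 libraries compared entered a fit. After filterByExpr and TMM scaling, counts were tested by the quasi-likelihood method of edgeR 4.0.16 in R 4.3.3, with Benjamini-Hochberg adjustment over all genes tested, and the SE was the log2 fold change over the square root of F. The code was tested on simulated data. Alternatives were DESeq2 1.42.0, library size alone, no filter, all 12 libraries in 1 fit, limma 3.58.1 on log2(FPKM + 1) or log2(FPKM + 0.1) for genes with a mean of at least 1 FPKM in either group or for all, a block for the replicate number, and leaving out single libraries. Ratios within a library and their exact permutation tests were added after the data were seen. No pair of replicates agreed within sampling noise.

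The members and the lists were chosen with earlier results of these data known. The named genes are all members, the 3 genes of each list with the highest mean FPKM, the 10 genes most like the members, and others said to be named after their values were seen. Of the 10 most alike, 9 are given, and some other results are not reported here. No sequence table of these genes was used here. Python 3.11.15, pandas 2.3.3, numpy 2.4.6 and matplotlib 3.10.9 were used for the rest.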

Additional observations from a re-analysis of the deposited data

How the results depend on the processing

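With 3 animals per group, fold changes near the threshold changed side easily. For single genes, 350 of the results under alternatives other than leaving out a library kept their direction and side of the threshold, 13 gained a call, 16 lost one and 5 turned sign, and with a library left out these numbers were 252, 10, 10 and 16. The calls of age between 6 months and 4 years (2 members higher, 4 lower) did not move under any alternative run. From 6 to 18 months, 2 members were called lower with all 12 libraries in 1 fit (main 0). That fit called 1827 of all genes higher and 828 lower (main 3 and 7). From 18 months to 4 years (main 0 higher, 0 lower), DESeq2 called 3 higher, all 12 libraries in 1 fit 3 higher and 1 lower, and leaving out a library gave 0 to 3 higher and 0 to 3 lower. Over all genes, the fit of 12 libraries called 1121 higher and 2365 lower. Leaving out a library gave 0 to 4277 higher and 0 to 3033 lower over all genes. Between cattle–yak and 4-year yak (1 higher, 2 lower), leaving out a library gave 0 to 1 higher and 1 to 2 lower, and over all genes 2673 to 3121 higher and 4126 to 4438 lower. Between cattle–yak and 6 months (1 higher, 6 lower), all 12 libraries in 1 fit gave 0 higher, leaving out a library 0 to 1 higher, library size alone 4 lower, and the 3 limma settings each 3 lower. Over all genes, library size alone called 1875 lower and limma 1341 to 1728 (main 3067). Between cattle–yak and 18 months (1 higher, 0 lower), DESeq2 gave 2 higher and 1 lower, all 12 libraries in 1 fit 2 higher and 1 lower, library size alone, no filter and limma without a filter 0 higher, and leaving out a library 0 to 2 higher and 0 to 3 lower. Over all genes, the fit of 12 libraries called 903 higher and 1710 lower. Leaving out a library gave 0 to 1166 higher and 0 to 1298 lower over all genes. Over all genes, DESeq2 called 1081 higher and 794 lower from 6 to 18 months (edgeR 3 and 7), 1234 and 1992 from 18 months to 4 years (edgeR 0 and 6), and 1016 and 1417 between cattle–yak and 18 months (edgeR 542 and 368). The cause of these differences was not tested.

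Some signs turned. From 6 to 18 months, CD14 (main -0.24) was 0.21 by library size alone and -1.05 to 0.07 with a library left out, and AIF1 (0.57) was -0.39 to 0.87, the lowest without replicate 2 at 18 months. With a library left out, CD163 was -0.15 to 0.53 between 6 months and 4 years and -0.11 to 0.44 between 6 months and cattle–yak (0.76 and 0.64 by library size alone). Between 4-year yak and cattle–yak, leaving out a library gave -0.46 to 0.17 for C1QA, -0.06 to 0.70 for C1QB, -0.34 to 0.11 for CD14, -0.21 to 0.27 for CD163 and -0.06 to 0.32 for CSF1R. C1QC between cattle–yak and 18 months (main -0.15) was 0.03 by library size alone, 0.09 in each of the 3 limma settings and -0.48 to 0.11 with a library left out.

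Deviations of same-numbered libraries correlated between -0.34 and 0.12, with 0 of 6 pairs of groups over 0.1 throughout. With 3 libraries per group this cannot decide whether same-numbered libraries share a factor. With the replicate number as a block, 0 members were called higher between cattle–yak and 18 months (CD163 at 1.22, adjusted p = 0.133), and no other call among the members changed. Over all genes the block gave 235 higher and 303 lower calls from 6 to 18 months, against 3 and 7 without it. Between cattle–yak and 18 months it gave 1 higher and 0 lower, against 542 and 368 without it. The lowest counts behind a member were 60 for CD14 at 18 months and 112 for CD68 at 4 years.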

Other observations

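Some genes that mark other white blood cells shared the library pattern of AIF1. NCF4, a subunit of the phagocyte oxidase, was at 18.4 to 28.5 FPKM in the 3 libraries at 4 years and replicate 2 at 18 months and at 0.11 to 1.26 in the other 8. S100A12, of neutrophils, was at 13.6 to 22.5 FPKM in those 4 and at most 1.11 in the other 8, and TIMD4, an uptake receptor of resident macrophages, at 8.88 to 26 against 0.56 to 4.79. Other defining genes of neutrophils were near 0 throughout: S100A8 was at most 0.72 FPKM and S100A9 at most 1.27 in any library. These genes were picked after their values had been seen, and no test of that split of the libraries was made. From 4-year yak to cattle–yak, NCF4 fell by 4.51 on the log2 scale (SE 0.23, adjusted p = 1.72e-06) and TIMD4 fell by 3.34 (SE 0.40, adjusted p = 0.000141) by edgeR's quasi-likelihood test.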
